A study of Mus musculus with 9 samples.

Results

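The *Fezf2-EnR* transgene was compared with its absence in *Fezf2*-null mouse cortex at postnatal day 0, and the genes that were lower and higher with it are described here. The genotypes set against each other were 2 *Fezf2*-/-; *Fezf2-EnR* libraries (bc208 and bc209, called *Fezf2-EnR* below) and 4 *Fezf2*-/- libraries (bc204 to bc207, called null). The members are the autosomal genes with a mean value of at least 10 over all 9 libraries of the series, 15545 of the 24624 genes listed. The other 3 libraries were *Fezf2*+/+ (bc201 to bc203), and their values stand beside those of the members. Each library came from the dissected cortex of 1 pup. All pups were born to *Fezf2*+/- mice crossed with *Fezf2*+/- mice that carried *Fezf2-EnR*, so both groups compared lack both functional *Fezf2* alleles and differ in the transgene. The *Fezf2*- allele carries a placental alkaline phosphatase gene at the locus. The transgene is a bacterial artificial chromosome that holds the *Fezf2* region, with a FEZF2-EnR reading frame placed at the *Fezf2* start codon, so it is driven by *Fezf2* regulatory DNA. No library of *Fezf2*+/+ mice with the transgene was analysed here.

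FEZF2 is a zinc finger transcription factor of forebrain progenitors and of deep-layer cortical projection neurons, best known for its role in the subcerebral neurons of layer 5, whose axons form the corticospinal tract. It carries an engrailed homology motif that binds TLE co-repressors (the Groucho family). In the fusion, the FEZF2 DNA-binding domain is joined to the repressor domain of Engrailed, a domain that lowers transcription of the genes to which it is brought. The comparison asks which transcripts such an obligate repressor lowers in cortex without FEZF2, and which it raises.

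The table holds normalized values, that is, read counts divided by a size factor of the library, and every value below is in that unit unless it is called a log2 difference. From 18716575 to 25127623 reads were recovered per library. All 19 pan-glutamatergic genes looked at were among the genes tested. So were 19 of 20 striatal, 12 of 13 thalamic and 13 of 13 hippocampal genes, so reaching the filter does not by itself check the cortical label. Some features of the libraries touch every result. *Xist* stood at 12203 and 7895 in the *Fezf2-EnR* libraries and at 0 to 3 in the null libraries, and the Y-linked gene *Ddx3y* stood at 0 in both *Fezf2-EnR* libraries and at 1211 to 1600 in the null libraries. The sex of the pups and the transgene therefore cannot be told apart between these 2 groups, which is why sex-linked genes are not members. In *Fezf2*+/+, bc201 was *Xist*-positive (10771) and bc202 and bc203 were not (59 and 8). Litters were unbalanced, since bc208 came from litter m3, as did the null libraries bc204 and bc207, whereas bc209 came from litter m2, which held no null library. On the first principal component (27.06% of the variance), the libraries of litter m1 lay at -24.42 to -12.21. Those of litters m2 and m3 lay at 2.02 to 24.84. Litter m1 held the null libraries bc205 and bc206 and no *Fezf2-EnR* library. Library bc209 stood apart from all other libraries on the second principal component (38.97, against -20.1 to 16.1), and *Fezf2-EnR* has only 2 libraries. Markers of striatal projection neurons differed between libraries of the same genotype. The retinoid receptor gene *Rxrg*, chosen as an example after its values were seen, stood at 419 in bc208 and 26.2 in bc209, and at 645 in the null library bc204 against 46.5 to 97 in the other null libraries. In bulk tissue, fewer cells of a type and less RNA per cell cannot be told apart.

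*Fezf2* itself (chr14:12342094-12348189), the gene that the null allele disrupts and the transgene carries, was at 907 and 1001 in the *Fezf2-EnR* libraries, 223, 193, 242 and 209 in the null libraries and 1232, 1010 and 979 in *Fezf2*+/+. Both *Fezf2-EnR* libraries stood above all null libraries, one of them within the *Fezf2*+/+ range and bc208 below it. The difference from null was 2.14 on the log2 scale (SE 0.12, adjusted p = 1.1e-05), and that from *Fezf2*+/+ was -0.16 (adjusted p = 0.5). Reads of the fusion and of the endogenous gene share sequence and were counted together, so this value is the transgene plus what the null allele gives.

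The windows that RefSeq gives for the starts of 5 genes are shown, as examples of genes that passed whichever library was left out: *Fosl2* and *Cck*, lower in *Fezf2-EnR*, and *Fezf2*, *Hs3st4* and *Tcerg1l*, higher. Each runs 5′ to 3′ from 250 bases before to 50 bases after the start (build GRCm38.p6). Capitals mark matches, on either strand, to the TATA box TATAAA, the CCAAT box CCAAT, the AP-1 site TGANTCA, the E-box CACGTG or the T-box site AGGTGTGA; no window holds more than 1 match.
Fosl2 (chr5:32136222-32136521, + strand): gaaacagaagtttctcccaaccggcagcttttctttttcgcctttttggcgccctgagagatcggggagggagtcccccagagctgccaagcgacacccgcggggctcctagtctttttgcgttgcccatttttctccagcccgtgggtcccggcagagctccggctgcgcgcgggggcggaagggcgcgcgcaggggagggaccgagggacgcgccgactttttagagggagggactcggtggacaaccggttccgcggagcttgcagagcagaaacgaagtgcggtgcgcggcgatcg
Cck (chr9:121495645-121495944, - strand): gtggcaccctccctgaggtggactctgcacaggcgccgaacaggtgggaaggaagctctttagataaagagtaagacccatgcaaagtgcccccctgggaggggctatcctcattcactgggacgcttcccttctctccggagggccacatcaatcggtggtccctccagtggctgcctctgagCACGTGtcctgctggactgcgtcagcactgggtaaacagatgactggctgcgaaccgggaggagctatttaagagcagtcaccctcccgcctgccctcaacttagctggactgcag
Fezf2 (chr14:12345816-12346115, - strand): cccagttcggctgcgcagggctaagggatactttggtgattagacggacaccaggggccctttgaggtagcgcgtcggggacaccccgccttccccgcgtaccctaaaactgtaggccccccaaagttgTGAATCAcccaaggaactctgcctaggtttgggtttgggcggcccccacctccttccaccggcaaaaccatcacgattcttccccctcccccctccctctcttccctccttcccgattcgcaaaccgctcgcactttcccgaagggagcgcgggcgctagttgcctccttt
Hs3st4 (chr7:123982578-123982877, + strand): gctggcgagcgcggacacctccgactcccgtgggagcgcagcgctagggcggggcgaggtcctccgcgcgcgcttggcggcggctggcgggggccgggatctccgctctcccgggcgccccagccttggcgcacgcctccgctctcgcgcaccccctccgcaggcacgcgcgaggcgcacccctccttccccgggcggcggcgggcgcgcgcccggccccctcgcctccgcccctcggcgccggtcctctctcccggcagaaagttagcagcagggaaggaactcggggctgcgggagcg
Tcerg1l (chr7:138397681-138397980, - strand): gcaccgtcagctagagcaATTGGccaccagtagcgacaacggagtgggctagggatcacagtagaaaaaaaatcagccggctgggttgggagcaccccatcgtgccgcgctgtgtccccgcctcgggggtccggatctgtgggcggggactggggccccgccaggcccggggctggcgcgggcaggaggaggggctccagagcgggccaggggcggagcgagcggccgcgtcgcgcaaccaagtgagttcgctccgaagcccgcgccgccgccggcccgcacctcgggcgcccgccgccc

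The *Fosl2* and *Hs3st4* windows held none of the 5 motifs, the *Cck* window held an E-box 66 bases before its start, the *Fezf2* window an AP-1 site 121 bases before its start and the *Tcerg1l* window a CCAAT box 232 bases before its start. Over the windows of all lower and all higher genes, motif shares were near those of the windows of all tested autosomal genes. The AP-1 site, the letters that FOS and JUN family proteins are known to bind, was in 3 of 63 windows of lower genes (4.76%), in 2 of 43 windows of higher genes (4.65%), in 4.68% of the 13453 windows of tested genes and in 7.81% of all 32851 windows. The CCAAT box was in 38.1%, 30.2%, 37.3% and 37.4% of the same 4 sets, the E-box in 7.94%, 14%, 9.51% and 7.15%, and the TATA box in 6.35%, 11.6%, 7.04% and 13.6%. The T-box site was in 0 windows of either called set and in 0.721% and 1.28% of the other sets. At least 1 window was listed for 49 of the 66 lower and 35 of the 51 higher genes.

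*Fezf2-EnR* cortex had lower transcripts of the AP-1 subunit *Fosl2*, the neuropeptide *Cck*, the G protein regulator *Rgs8* and the matrix protein *Matn2*, and higher transcripts of *Nxph3*, *Hs3st4*, *Tcerg1l*, *Tle4*, *Ngfr* and *Zfpm2*, most of them known from deep-layer neurons. Over the 15545 members, 117 genes passed an adjusted p of 0.05 in limma (0.753% of the genes tested). Of these, 66 were lower in *Fezf2-EnR* (0.425%) and 51 were higher (0.328%). The libraries of the 2 groups did not overlap for any of the 117, and they did not overlap for 24.6% of all genes tested. On recovered reads, edgeR called 109 genes (0.701%), of which 105 were among the 117, and DESeq2 called 430 (2.77%), of which 103 were. The same limma fit called 136 genes between null and *Fezf2*+/+ (0.875%) and 19 between *Fezf2-EnR* and *Fezf2*+/+ (0.122%); both comparisons share libraries with the one described here. The size of the log2 difference ranged from 0.39 to 5.27 in the lower genes (median 0.83) and from 0.37 to 2.95 in the higher genes (median 0.98), against a median of 0.14 over all genes. The plot of level against change shows these genes over the whole range of levels.

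**Figure D1:**
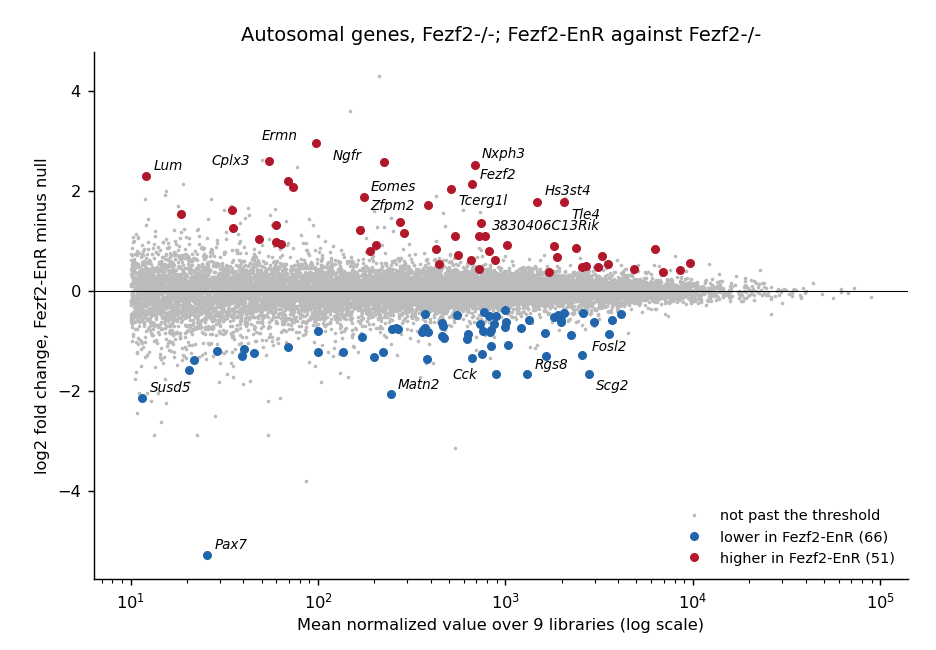
Each point is an autosomal gene, with its mean normalized value over 9 libraries (log axis) against its log2 fold change, *Fezf2-EnR* minus null. The 66 lower genes (blue) and 51 higher genes (red) that passed an adjusted p of 0.05 are drawn over the genes that did not (grey), and *Pax7*, at -5.27, lies farthest from 0 among them.

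The number of genes past the threshold depended on single libraries. Without bc209 it was 19, all of them among the 117, and without bc208 it was 1049, of which 108 were among the 117. Among the null libraries, leaving out bc205 gave 48 genes and leaving out bc206 gave 56, and among *Fezf2*+/+ libraries, which enter through the shared spread, leaving out bc201 gave 74 and bc202 gave 63. In all 9 of these fits 18 genes passed: *Nxph3*, *Hs3st4*, *Tcerg1l*, *Fezf2*, *3830406C13Rik*, *Tle4*, *Ngfr*, *Zfpm2*, *Nfe2l3*, *Ephb1* and *Clic5* among the higher, and *Fosl2*, *Gnb4*, *Cck*, *Matn2*, *Atp6v0c-ps2*, *Rgs8* and *Pax7* among the lower. All 117 kept their direction in each of the 9 fits and within litter m3 alone, 1 *Fezf2-EnR* library against 2 null libraries. Because the libraries of the 2 groups did not overlap for any of the 117, no direction could change in these fits. Within litter m3 the median log2 difference was -0.69 in the lower genes and 0.94 in the higher genes. With *Xist* level as a covariate, which rests on the single *Xist*-positive *Fezf2*+/+ library, 10 genes passed, and 4 of the 117 were among them, *Nxph3*, *Hs3st4*, *Tcerg1l* and *Fezf2*. In that fit all 117 kept their direction, as did 11248 of all 15545 genes tested. The median log2 difference was -0.88 in the lower and 1.03 in the higher genes. The 117 were called on these same libraries, so kept directions and sizes do not separate sex from the transgene. Within *Fezf2*+/+, the *Xist*-positive library differed from bc202 and bc203 by a median log2 difference in size of 0.09 over the lower genes, 0.09 over the higher genes and 0.11 over all genes tested.

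**Figure D2:**
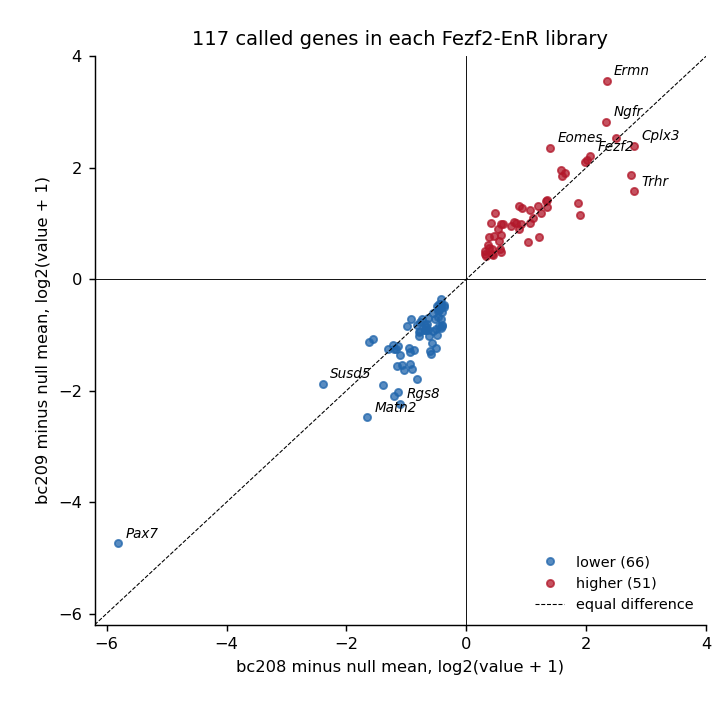
For each of the 117 genes, the log2(value + 1) of bc208 minus the null mean (x) is plotted against that of bc209 (y), with the dashed line where they are equal. All points lie below 0 on both axes or above 0 on both, which follows from the lack of overlap between the groups. In bc209, 53 of the 66 lower and 38 of the 51 higher genes were farther from the null mean than in bc208. Over all 15545 genes tested, 10073 were farther in bc209, so most genes shared this feature of the library.

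Beside *Fezf2*, 6 other tested genes lie within 1 Mb, and the pair with the nearest start sites rose. *3830406C13Rik*, a protein-coding gene whose start lies 64.0 kb downstream of the *Fezf2* start (chr14:12284173-12303231), was at 1465 and 1466 in *Fezf2-EnR*, at 634, 667, 739 and 688 in null and at 478, 441 and 432 in *Fezf2*+/+. Its 2 *Fezf2-EnR* values exceeded every null and every *Fezf2*+/+ value. The log2 difference was 1.10 from null (SE 0.08, adjusted p = 9.64e-05) and 1.70 from *Fezf2*+/+ (adjusted p = 1.36e-05), and null exceeded *Fezf2*+/+ by 0.60 (adjusted p = 0.00271). *Gm49355*, which overlaps it, was at 335 and 321 in *Fezf2-EnR*, 125, 165, 151 and 125 in null and 96.3, 89.4 and 91.7 in *Fezf2*+/+. It was 1.22 above null (SE 0.14, adjusted p = 0.00299) and 1.82 above *Fezf2*+/+ (adjusted p = 0.00033), but without bc209 its adjusted p against null was 0.0526. Reads of these 2 overlapping genes may be split between them. *Gm49355* did not pass between null and *Fezf2*+/+ (0.60, adjusted p = 0.0613). The remaining 4 neighbours did not pass: *Cadps* differed by -0.23 (adjusted p = 0.266), *Ptprg* by -0.11 (adjusted p = 0.798), *Synpr* by -0.57 (adjusted p = 0.263) and *Gm3839* by 0.13 (adjusted p = 0.898). The part of the transgene's own flanking DNA in the values of *3830406C13Rik* and *Gm49355* was not tested.

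**Figure D3:**
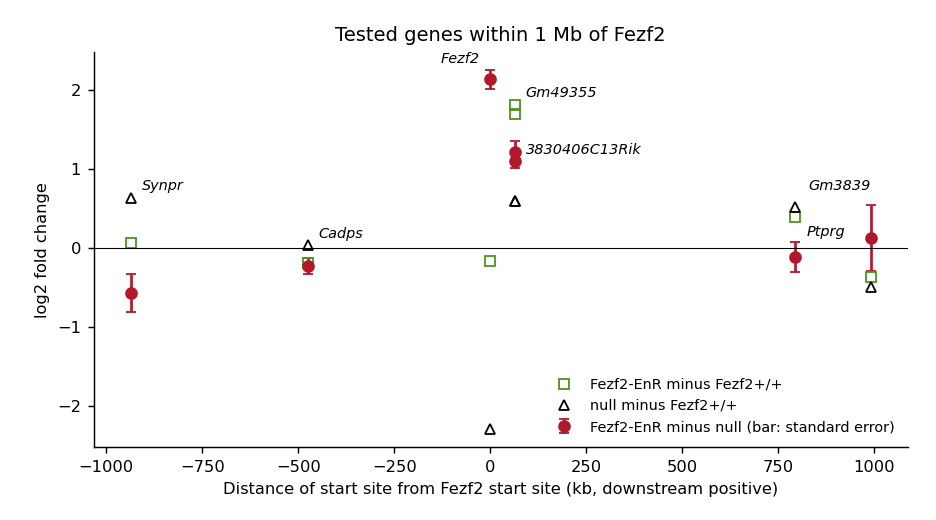
The log2 fold change of each tested gene within 1 Mb of *Fezf2* is plotted against the distance of its start site from that of *Fezf2* in kb, for *Fezf2-EnR* minus null (red, bars are standard errors), *Fezf2-EnR* minus *Fezf2*+/+ (green squares) and null minus *Fezf2*+/+ (triangles). The 2 genes at about 64 kb lie above 0 in all 3 comparisons, whereas *Fezf2* lies at 2.14, -0.16 and -2.30.

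Among the transcripts lower in *Fezf2-EnR* was the transcription factor *Fosl2* (chr5:32135801-32157842), which pairs with JUN proteins at AP-1 sites. It stood at 1581 and 1630 in *Fezf2-EnR*, 3735, 3508, 3821 and 4585 in null and 1489, 1418 and 1419 in *Fezf2*+/+. The null libraries were all more than the highest value of either other genotype. *Fosl2* was 2.42-fold lower than in null (log2 difference -1.28, SE 0.09, adjusted p = 9.64e-05), while null was 1.43 above *Fezf2*+/+ on the log2 scale (adjusted p = 7.45e-06) and *Fezf2-EnR* was 0.16 above it (adjusted p = 0.415). Its log2 difference was -1.30 without bc209 and -1.25 without bc208.

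*Cck* (chr9:121489824-121495694), which encodes the neuropeptide cholecystokinin, was at 511 and 358 in *Fezf2-EnR*, 1267, 1439, 1346 and 1338 in null and 463, 567 and 677 in *Fezf2*+/+, a log2 difference from null of -1.65 (SE 0.16, adjusted p = 0.000781). The groups did not overlap, and bc208 fell within the *Fezf2*+/+ range and bc209 below it. *Scg2*, a secretogranin stored in dense-core vesicles, was at 1635 and 882 in *Fezf2-EnR* and between 2664 and 4837 in null (-1.65, SE 0.28, adjusted p = 0.0287). The null libraries of litter m1 held the 2 highest values of *Scg2* (4792 and 4837), and within litter m3 its difference was -0.86. *Unc13c*, a presynaptic priming factor, was at 587 and 358 in *Fezf2-EnR* and between 882 and 1436 in null (-1.26, SE 0.21, adjusted p = 0.0268).

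Parts of G protein and calcium signalling were also among the lower genes. *Rgs8* (chr1:153653025-153700323), which speeds the GTPase of G protein alpha subunits, was at 977 and 447 in *Fezf2-EnR*, 2037, 1840, 2310 and 2274 in null and 618, 650 and 596 in *Fezf2*+/+. The 2 *Fezf2-EnR* libraries lay on either side of the *Fezf2*+/+ range, and the difference from null was -1.67 (SE 0.23, adjusted p = 0.00941). *Gnb4* (chr3:32580332-32616585), a G protein beta subunit, was at 2587 and 2309 against 4202, 4414, 4578 and 4691 in null (-0.87, SE 0.07, adjusted p = 0.000165). The gamma subunit gene *Gng4* was at 1283 and 651 against 2117, 2088, 2340 and 2517 (-1.30, SE 0.20, adjusted p = 0.0197). *Slc24a2*, a potassium-dependent sodium/calcium exchanger, was at 471 and 310 against 773 to 1138 (-1.33, SE 0.18, adjusted p = 0.00734). In each of these genes bc209 was the lower of the 2 *Fezf2-EnR* libraries. *Gnb4* was named after its values were seen.

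Matrix proteins, a chaperone and a homeobox gene were also among the largest falls. *Matn2* (chr15:34306677-34436273), a matrilin of the extracellular matrix, was at 124 and 69.9 in *Fezf2-EnR*, 412, 365, 347 and 460 in null and 139, 147 and 135 in *Fezf2*+/+. It had the largest fall among genes with a mean of at least 50 (-2.06, SE 0.20, adjusted p = 0.000818), 4.18-fold. *Loxl2*, a lysyl oxidase that crosslinks collagen, was at 128 and 125 against 220 to 384 in null (-1.23, adjusted p = 0.0268). The small heat shock protein *Cryab* was at 222 and 167 in *Fezf2-EnR*, 448 to 539 in null and 288, 342 and 414 in *Fezf2*+/+ (-1.36, SE 0.16, adjusted p = 0.00303). *Cryab* thus stood below *Fezf2*+/+ in both *Fezf2-EnR* libraries, but that difference of -0.83 did not pass (adjusted p = 0.0963). It shares exonic bases with *Hspb2*, and the use of strand in counting is not given in the sources used here. The homeobox gene *Msx3* was at 80.6 and 114 against 182 to 324 in null and 190 to 207 in *Fezf2*+/+ (-1.31, SE 0.24, adjusted p = 0.0392). *Gm28042*, a gene model that runs across *Jmjd7* and *Pla2g4b*, was at 62.7 and 52.5 against 132 to 140 (-1.23, adjusted p = 0.00409), and reads of these overlapping genes cannot be told apart.

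*Pax7*, a paired-box transcription factor of neural and muscle progenitors, was named after its values were seen, because its mean is below 50. It was at 0 and 1.09 in *Fezf2-EnR*, 39.2, 81.7, 66.7 and 42.4 in null and 0 in all 3 *Fezf2*+/+ libraries. Only the null libraries held more than about 1 read, and the fitted log2 difference of -5.27 (SE 0.43, adjusted p = 0.00021) depends on the pseudocount. It passed in all 9 fits that left out 1 library. With *Xist* level as a covariate it did not pass (adjusted p = 0.192), a mean of at least 50 leaves it out, and DESeq2 gave it no adjusted p.

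Of the 12 largest falls, *Matn2*, *Rgs8*, *Cck* and *Fosl2* passed whichever library was left out. *Gng4* did not pass without bc206 (adjusted p = 0.053). Without bc209, *Cryab* (0.0632), *Slc24a2* (0.10), *Gm28042* (0.0735), *Loxl2* (0.267), *Unc13c* (0.31), *Scg2* (0.377) and *Msx3* (0.138) had the adjusted p-values in brackets. *Loxl2* also did not pass without bc205, *Unc13c* without bc204 or bc205, *Scg2* without bc202, bc205 or bc206, and *Msx3* without any 1 of bc201, bc202, bc203, bc205, bc206 or bc208. With litter as a block, all 12 were past the threshold (adjusted p from 0.000119 for *Matn2* to 0.0262 for *Slc24a2*). With only the 2 groups compared in limma, *Gng4* (0.0606), *Loxl2* (0.0634), *Scg2* (0.0651), *Unc13c* (0.0664) and *Msx3* (0.107) did not pass. With library weights, *Scg2*, *Unc13c*, *Loxl2* and *Msx3* did not pass. None of the 12 passed with *Xist* level as a covariate.

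The transcripts higher in *Fezf2-EnR* were led by genes that null cortex held at low levels. *Nxph3* (chr11:95509845-95514570), a neurexophilin that binds alpha-neurexins, was at 991 and 1021 in *Fezf2-EnR*, 184, 145, 195 and 184 in null and 1188, 1160 and 1094 in *Fezf2*+/+. The groups did not overlap, and both *Fezf2-EnR* libraries lay just below the *Fezf2*+/+ range. The log2 difference was 2.51 (SE 0.11, adjusted p = 3.32e-06), or 5.70-fold. *Hs3st4* (chr7:123982869-124398989), a heparan sulfate sulfotransferase, was at 1824 and 2201 against 584, 615, 570 and 575 in null and 2290, 2398 and 2233 in *Fezf2*+/+ (1.77, SE 0.08, adjusted p = 3.32e-06). *Tcerg1l* (chr7:138208974-138397730) was at 700 and 765 against 197, 182, 162 and 168 in null and 877, 829 and 750 in *Fezf2*+/+ (2.05, SE 0.11, adjusted p = 7.18e-06). The null libraries of these 3 genes lay close together, and no *Fezf2-EnR* library came near them.

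The co-repressor gene *Tle4*, a marker of corticothalamic neurons (chr19:14448150-14598051), whose protein belongs to the Groucho family, was at 2806 and 3664 in *Fezf2-EnR*, 978, 977, 820 and 990 in null and 2861, 2642 and 2755 in *Fezf2*+/+. One *Fezf2-EnR* library lay within the *Fezf2*+/+ range and the other, bc209, above it. The log2 difference from null was 1.77 (SE 0.11, adjusted p = 2.35e-05). *Zfpm2* (chr15:40655035-41104592), a zinc finger cofactor of GATA factors that marks corticothalamic neurons, was at 524 and 624 against 148, 182, 186 and 180 in null (1.72, SE 0.16, adjusted p = 0.000781), and at 672, 505 and 444 in *Fezf2*+/+. *Ngfr* (chr11:95568818-95587735), the p75 neurotrophin receptor and a subplate gene at this age, was at 297 and 417 against 50.2, 56.7, 54.2 and 73.1 in null and 340, 390 and 337 in *Fezf2*+/+ (2.58, SE 0.18, adjusted p = 5.54e-05).

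More of the largest rises had low values in null. *Ermn*, named ermin for its actin-binding ERM-like domain, was at 111 and 259 in *Fezf2-EnR* against 37.2, 12, 16.7 and 25.8 (2.95, SE 0.42, adjusted p = 0.0101). *Cplx3*, a complexin that regulates vesicle release and marks subplate neurons, was at 85.6 and 64.5 against 6.03, 14.2, 15.6 and 12.5 (2.60, SE 0.33, adjusted p = 0.00564). The thyrotropin-releasing hormone receptor *Trhr* was at 157 and 66.7 against 40.2, 20.7, 16.7 and 15.8 (2.19, SE 0.40, adjusted p = 0.0392). The null library bc204 held the highest *Ermn* and *Trhr* values of its group, and the 2 *Fezf2-EnR* libraries differed from each other in opposite order in the 2 genes. *Clic5*, a chloride intracellular channel family member, was at 115 and 126 against 23.1, 26.1, 25 and 39 (2.08, SE 0.21, adjusted p = 0.00136).

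*Eomes*, the T-box factor of cortical intermediate progenitors, had another pattern across genotypes. It was at 260 and 506 in *Fezf2-EnR*, 119, 120, 108 and 59.0 in null and 182, 135 and 91.7 in *Fezf2*+/+. The null and *Fezf2*+/+ ranges overlapped and both *Fezf2-EnR* libraries were above them. The log2 difference from null was 1.88 (SE 0.36, adjusted p = 0.0426) and that from *Fezf2*+/+ was 1.46, which did not pass (adjusted p = 0.126). Within *Fezf2*+/+, the *Xist*-positive library exceeded the others by 0.70 on the log2 scale. The call was lost without any 1 of bc201, bc202, bc204, bc205, bc206, bc207 or bc209, and without bc209 the log2 difference was 1.40 (adjusted p = 0.551).

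Of the 12 largest rises, *Ngfr*, *Nxph3*, *Fezf2*, *Clic5*, *Tcerg1l*, *Hs3st4*, *Tle4* and *Zfpm2* passed whichever library was left out. Without bc209, *Ermn* had an adjusted p of 0.169 and *Cplx3* of 0.0632. *Trhr* did not pass without any 1 of 7 libraries (all but bc203 and bc204), with an adjusted p of up to 0.104. Over these 24 genes, the null and *Fezf2*+/+ ranges overlapped in 2, *Eomes* and *Msx3*, as the plot by library shows.

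**Figure D4:**
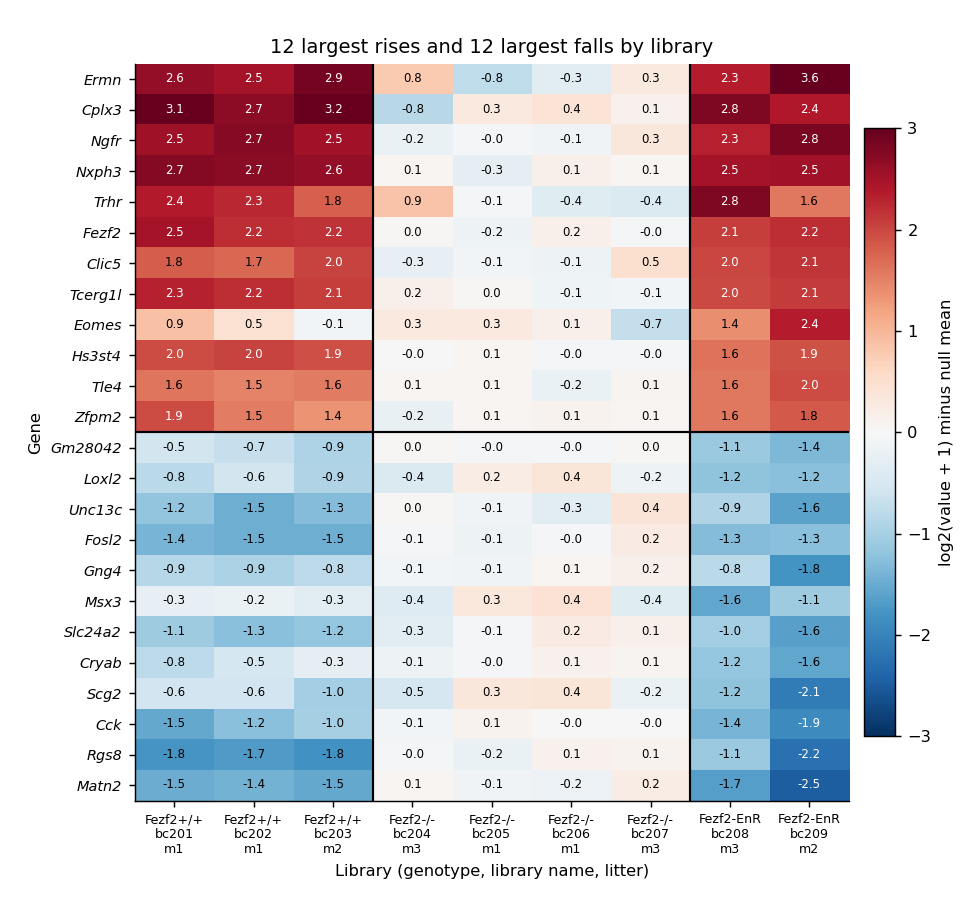
Rows are the 12 largest rises and 12 largest falls and columns are the 9 libraries with genotype and litter, and color and printed number give log2(value + 1) minus the null mean. Both *Fezf2-EnR* columns are above the null columns in the upper 12 rows and below them in the lower 12, and in *Eomes*, *Msx3*, *Scg2* and *Cryab* the mean of the *Fezf2*+/+ columns sits nearer to that of null than to that of *Fezf2-EnR*.

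Over gene lists of cortical neuron types, deep-layer lists held most of the calls. The lists were chosen with earlier results of these data known. They hold *Fezf2*, which the transgene carries, and genes that the study named from these libraries, such as *Tcerg1l*, *Kif26a*, *Ldb2*, *Ephb1* and *Ctgf*. The counts of calls in them are therefore not an independent result about cell types. Over all genes tested, 0.328% were higher and 0.425% lower. Of 30 corticothalamic and layer 6 genes, 8 were higher and 1 was lower (*Cryab*), with a median log2 difference of 0.41 against 0.00 over all genes. The higher genes were *Nxph3*, *Hs3st4*, *Tle4* and *Zfpm2*, with *Syt6*, *Kctd12* (0.83, adjusted p = 0.0308), *Gsg1l* (0.54, adjusted p = 0.0189) and the kainate receptor *Grik3* (0.44, adjusted p = 0.0107). *Syt6*, a synaptotagmin, was at 909 and 955 in *Fezf2-EnR* and between 237 and 554 in null (1.37, SE 0.25, adjusted p = 0.0389). *Syt6* did not pass without bc201, bc202, bc205, bc206 or bc209 (adjusted p = 0.382 without bc209) or with litter as a block (0.0819), *Kctd12* without bc201, bc202, bc204, bc205, bc206, bc207 or bc209 (0.0533 without bc209), *Gsg1l* without bc205, bc206 or bc209 (0.104) and *Grik3* without bc209 (0.113). These 4 were named after their values were seen. The count of higher genes in the list was 4 without bc209 and 5 without bc205. Of 27 layer 5 subcerebral genes, 7 were higher and 0 lower, with a median of 0.44. They were *Fezf2*, *Tcerg1l*, *Kif26a*, *Oma1*, *Ephb1*, *Adcyap1* and *Ldb2*, and 3 passed without bc209. *Ephb1*, an ephrin receptor that guides axons, was at 2305 and 2319 against 1385, 1297, 1092 and 1232 in null (0.89, SE 0.10, adjusted p = 0.00216), and *Kif26a*, an unconventional kinesin, was at 1204 and 1355 against 563 to 754 (0.91, SE 0.12, adjusted p = 0.00734). *Oma1*, a mitochondrial protease, was at 225 and 263 against 120 to 148 (0.91, adjusted p = 0.00824), and *Ldb2*, a LIM domain-binding cofactor, at 3399 and 3835 against 2420 to 2793 (0.47, adjusted p = 0.0395). Without bc209, *Kif26a* (0.132), *Oma1* (0.138) and *Ldb2* (0.47) had the adjusted p-values in brackets. *Ldb2* also did not pass without bc202, bc204, bc205, bc206 or bc207, or with litter as a block (adjusted p = 0.052).

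Of 21 subplate and layer 6b genes, 6 were higher and 0 lower, against 0.328% and 0.425% of all genes tested. The median over the list was only 0.04 (11 members positive and 10 negative). The 6 were *Ermn*, *Cplx3*, *Ngfr*, *Trh*, *Ctgf* and *Nxph4*, and 1 of them, *Ngfr*, passed without bc209. *Ctgf*, a secreted matricellular protein that marks subplate, was at 365 and 381 against 127, 171, 164 and 117 in null and 404, 398 and 335 in *Fezf2*+/+ (1.38, SE 0.16, adjusted p = 0.0033). *Trh*, thyrotropin-releasing hormone, was at 49.8 and 35.0 against 9.38 to 18.5 in null (1.61, SE 0.28, adjusted p = 0.0326). Without bc209, *Ctgf* had an adjusted p of 0.0655 and *Trh* of 0.138, and *Trh* also did not pass without bc201, bc202, bc204, bc206, bc207 or bc208, or with litter as a block (0.0535). The nuclear receptor *Nr4a2*, in the same list, stood lower in *Fezf2-EnR* at 2653 and 2016 against 3357 to 4796, a log2 difference of -0.70 that did not pass (adjusted p = 0.0649).

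Of 33 callosal and upper-layer genes, 4 were lower and 0 higher, against 0.425% and 0.328% of all genes tested, with a median of -0.05. Besides *Fosl2*, they were *Kcnh1*, *Ntng2* and *Mdga1*. *Kcnh1*, a voltage-gated potassium channel, was at 541 and 443 against 880 to 1270 in null and 692 to 845 in *Fezf2*+/+ (-1.10, SE 0.15, adjusted p = 0.01). *Ntng2*, netrin-G2, was at 1150 and 1036 against 1793 to 2227 (-0.85, SE 0.11, adjusted p = 0.00734), and *Mdga1*, a membrane-anchored adhesion protein of layer 2/3 neurons, at 3179 and 2762 against 3707 to 4863 (-0.58, SE 0.10, adjusted p = 0.0336). Without bc209 only *Fosl2* of the 4 passed (*Kcnh1* 0.169, *Ntng2* 0.13 and *Mdga1* 0.413), and without bc208, 7 lower and 4 higher genes of the list passed. *Mdga1* also did not pass without bc201, bc202, bc205, bc206 or bc207, or with litter as a block (adjusted p = 0.106).

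Several regulators of deep-layer identity did not pass. *Foxp2*, a corticothalamic transcription factor, was at 826 and 911 in *Fezf2-EnR*, 636, 276, 224 and 161 in null and 820, 742 and 742 in *Fezf2*+/+. The groups did not overlap, but bc204 stood far above the other null libraries, and the log2 difference of 1.62 had an SE of 0.40 (adjusted p = 0.106). Without bc204 its adjusted p was 0.00141. *Bcl11b* (CTIP2), which directs subcerebral axons, was at 5909 and 4686 against 5287, 3591, 2821 and 4193 (0.44, SE 0.19, adjusted p = 0.282), and the ranges overlapped. *Tbr1* (0.22, adjusted p = 0.262), *Sox5* (0.36, adjusted p = 0.26) and *Wnt7b* (0.35, adjusted p = 0.167) did not pass either. *Bhlhe22* was at 6664 and 8744 against 4974 to 5681 (0.49, SE 0.10) and did not pass in limma (adjusted p = 0.0563). It passed in edgeR (0.0445), in DESeq2 (0.000286), with length and GC trends removed (0.0384) and without bc208 (0.00347), but not with litter as a block (0.0733). Of the 6 TLE co-repressor genes, *Tle4* passed and the other 5 had log2 differences from -0.25 (*Tle3*, adjusted p = 0.182) to -0.02 (*Tle1*, adjusted p = 0.928).

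**Figure D5:**
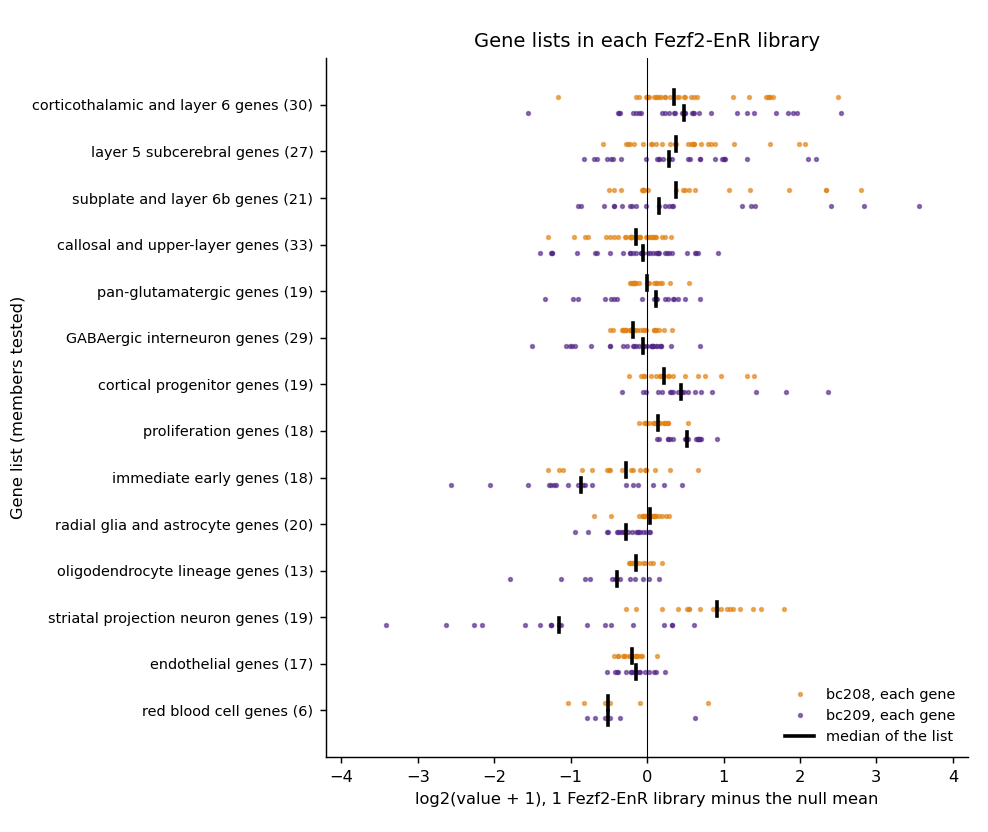
For each gene list, the log2(value + 1) of each member minus its null mean is plotted for bc208 (orange) and bc209 (purple), with black bars at the medians and the number of members tested in brackets. The corticothalamic, layer 5, subplate, progenitor and proliferation lists have medians above 0 in both libraries. In bc209 the progenitor (0.44) and proliferation (0.53) medians exceed that of layer 5 (0.28). The striatal list has medians of 0.91 in bc208 and -1.15 in bc209.

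A further set changed against null although null and *Fezf2*+/+ libraries overlapped. *Atp6v0c-ps2* (chr6:37806086-37806550), annotated as a processed pseudogene of a proton pump subunit gene, was at 662 and 499 in *Fezf2-EnR*, 1269, 1228, 1130 and 1214 in null and 954, 1170 and 1111 in *Fezf2*+/+. Both *Fezf2-EnR* libraries were the lowest of all 9. The log2 difference was -1.07 from null (SE 0.12, adjusted p = 0.00216) and -0.90 from *Fezf2*+/+ (adjusted p = 0.022). Reads of a pseudogene and of its near-identical parent can be exchanged, and the parent *Atp6v0c* was at 5274 and 4419 in *Fezf2-EnR* and between 4743 and 5236 in null (-0.07, SE 0.09, adjusted p = 0.735). The potassium channel gene *Kcnn1* (-0.82, adjusted p = 0.0426), the hyaluronan synthase *Has2* (-0.91, adjusted p = 0.0395) and *Fndc5*, the precursor of irisin (-0.83, adjusted p = 0.0412), were lower than null, and against *Fezf2*+/+ none passed (adjusted p = 0.154, 0.113 and 0.113). *Tshz3*, a zinc finger homeobox gene of deep-layer neurons (0.68, adjusted p = 0.0426), the survival factor *Bcl2* (0.62, adjusted p = 0.0392), the transcriptional repressor *Nab1* (0.61, adjusted p = 0.0389) and the vesicle GTPase *Rab3c* (0.37, adjusted p = 0.0385) were higher than null. Against *Fezf2*+/+ none of these higher genes passed either (adjusted p = 0.216, 0.115, 0.179 and 0.112 in limma). Each of these 7 genes, 3 lower and 4 higher, lost its call against null without bc209, and each also lost it without bc202 or bc205. Without bc201 all but *Tshz3* lost it, and without bc206 all but *Kcnn1*. *Kcnn1*, *Fndc5* and *Tshz3* lost it without bc203, *Tshz3*, *Bcl2*, *Nab1* and *Rab3c* without bc204, and *Kcnn1* and *Has2* without bc207 or bc208. With litter as a block, *Fndc5* (0.0851), *Tshz3* (0.106), *Bcl2* (0.106), *Nab1* (0.0967) and *Rab3c* (0.102) did not pass in limma either (adjusted p in brackets).

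A further few genes were named after their values were seen. The ligand *Adcyap1* (PACAP) was higher, at 203 and 263 against 131 to 134 in null (0.79, SE 0.13, adjusted p = 0.0244), while its receptor *Adcyap1r1* was lower, at 3627 and 3411 against 4641 to 4993 (-0.46, SE 0.09, adjusted p = 0.0395). Ligand and receptor thus differed in opposite directions. *Nxph4*, a relative of *Nxph3*, was at 327 and 367 against 126 to 169 (1.15, SE 0.14, adjusted p = 0.0052). The transcription factor *Nfe2l3* was at 818 and 1035 against 384, 393, 473 and 468 (1.10, SE 0.12, adjusted p = 0.00216). Of these 4, *Nfe2l3* passed in every fit that left out a library. *Nxph4* did not pass without bc209 (adjusted p = 0.10), *Adcyap1* without bc205, bc206 or bc209 (0.285 without bc209), and *Adcyap1r1* without bc201, bc204, bc205, bc206, bc207 or bc209 (0.411 without bc209) or with litter as a block (0.0904).

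Over lists of other cell types, calls in limma are read against the 0.753% of all genes tested that passed, a share at which lists of this size would hold about 0 calls each. No gene passed among 29 GABAergic interneuron genes (median -0.12), 20 radial glia and astrocyte genes (-0.13), 13 oligodendrocyte lineage genes (-0.29), 17 endothelial genes (-0.15), 12 pericyte genes (-0.21), 16 microglial genes (0.02), 19 pan-glutamatergic genes (-0.03), 12 thalamic genes (-0.08) or 19 striatal genes (-0.18) in limma. At an unadjusted p under 0.05, which 2625 of all members met (16.9%), there were 9 GABAergic, 2 radial glia and astrocyte, 6 oligodendrocyte lineage, 3 endothelial, 2 pericyte, 0 microglial, 8 pan-glutamatergic, 4 thalamic and 4 striatal genes. DESeq2 called 2 GABAergic and 2 pan-glutamatergic genes, edgeR called 1 pan-glutamatergic gene, and neither called any in the other 7 lists. Without bc208, limma called 5 GABAergic and 5 pan-glutamatergic genes and between 0 and 3 in each of the other 7. The summed level of the striatal genes was 18941 and 16195 in *Fezf2-EnR* and 14010 to 21017 in null, so it did not separate the groups. That of the GABAergic genes was 35755 and 37728 against 40219 to 44230, and that of the oligodendrocyte lineage genes 8801 and 8156 against 9126 to 9690, both lower in both *Fezf2-EnR* libraries. That of the red blood cell genes was 6281 and 5800 against 7241 to 11003. That of the endothelial genes was 5511 and 5717 against 5956 to 6944. No gene of the red blood cell list passed in limma (6 of 6 had an unadjusted p under 0.05, and DESeq2 called 1). The part of these cell types in the results was not tested. Among 16 meningeal genes the proteoglycan *Lum* was higher, at 24.9 and 13.1 against 1.04 to 4.36 (2.30, adjusted p = 0.0426), and it did not pass when any 1 library was left out or with litter as a block (0.0701). Only 2 of 13 choroid plexus genes reached the filter. Among 13 hippocampal genes *Fibcd1* was lower, at 78.7 and 74.3 against 150 to 205 (-1.22, SE 0.15, adjusted p = 0.00456; without bc209, 0.0748).

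Progenitor and activity genes were looked at by list, against the same 0.753% of all genes tested that passed in limma. All 18 proliferation genes had positive log2 differences, with a median of 0.34 (0.14 in bc208, 0.53 in bc209), but none passed in limma, edgeR or DESeq2 (5 had an unadjusted p under 0.05). Their summed level was 6097 and 7839 in *Fezf2-EnR* and 5121 to 6606 in null, so the ranges overlapped. Of 19 progenitor genes, 16 were positive with a median of 0.31. In limma 1 passed, *Eomes*, while edgeR called 2, DESeq2 3 and limma without bc208 3. The proneural factor *Neurog2*, named with *Npas4* after the values were seen, was at 93.6 and 168 against 38.1 to 70.3 (1.39, SE 0.28, adjusted p = 0.0562). Of 18 immediate early genes, 15 had negative differences, with a median of -0.51 (-0.27 in bc208 and -0.87 in bc209). In limma 1 passed, *Fosl2*, while edgeR called 1, DESeq2 called 3 and limma without bc208 5. The activity-regulated factor *Npas4* was at 12 and 8.74 against 22.9 to 35.2 (-1.35, SE 0.27, adjusted p = 0.0545). The summed level of the immediate early genes, to which *Fosl2*, *Nr4a2*, *Nr4a3* and *Homer1* contribute most, was 11310 and 11415 in *Fezf2-EnR*, 14768 to 17955 in null and 10437 to 10932 in *Fezf2*+/+.

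Broad functional lists were counted against the same 0.753% of all genes tested. Of 66 axon guidance genes 1 was higher (*Ephb1*) and 1 lower (*Ntng2*), of 111 ion channel genes 0 were higher and 2 lower (*Kcnh1* and *Kcnn1*; 76 of the 111 had negative differences, median -0.10), and of 75 extracellular matrix genes 1 was higher, the collagen *Col12a1*, at 94.6 and 90.7 against 31.3 to 45.2 (1.32, SE 0.23, adjusted p = 0.0322; without bc209, 0.285). *Col12a1* also did not pass without bc202, bc205, bc206 or bc207. A further list took 197 genes by symbols that start like those of cytosolic ribosomal proteins. Such a match can also take in pseudogenes and the *Rps6k* kinase genes. No gene passed among these 197 (median 0.01), 86 nuclear oxidative phosphorylation genes (-0.08) or 17 hypoxia response genes (-0.04) in limma or edgeR, and 1 of each passed in DESeq2. At an unadjusted p under 0.05 there were 8, 7 and 5. Among 15 heat shock genes *Cryab* alone passed.

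The called genes were compared with all members in level, which the rule used as a filter, and in features that the rule did not use. The median level was 697 in the lower genes, 651 in the higher genes and 392 over all genes tested. Median exonic length was 4687, 4375 and 4133 bases and median GC content 53.6%, 50.9% and 50.1%. Of the lower genes 64 of 66 were protein-coding, as were all 51 higher genes and 85.1% of all genes tested. Exonic bases were shared with another annotated gene in 19 of the 66 lower and 15 of the 51 higher genes (28.8% and 29.4%, against 37.4% of all), and without known strand the values of these genes may include reads of the neighbour. Removing trends with length and GC content left 105 of the 117 past the threshold.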

How the data were processed

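The authors isolated RNA from dissected cortices of single P0 pups, made poly(A) libraries and sequenced them. Per the labels, STAR, Bowtie, DESeq and the mm10 build were used; version, annotation release, counting tool and strand are not given in the sources used here. The authors deposited 1 table of normalized signal, read counts divided by a library size factor, for 24624 genes. In all 9 libraries, all values over 20 were whole multiples (within 0.01) of the value of 1 read, which recovered the reads.

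Identifiers were matched to GENCODE M21 (GRCm38), 24595 of 24624. The 16197 genes whose mean reached 10 were fitted, as log2(value + 1), with limma 3.58.1 (lmFit, eBayes with a trend) in R 4.3.3, with 1 coefficient per genotype, 9 libraries and no covariate. Fold changes on this scale understate changes of low genes. Benjamini-Hochberg adjustment ran over all 16197 genes, and autosomal genes with an adjusted p under 0.05 were called. Removing the filter brings in 8061 autosomal genes with lower means. Both comparisons with *Fezf2*+/+ share libraries with the main one. Exact two-sided permutation tests over the 15 divisions of 2 against 4 libraries cannot go below 0.133 and are not used. Replicates are single pups, so p-values measure the spread between these pups.

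The members, gene lists and named-gene rule were chosen with earlier results of these data known. Named were the 12 largest changes each way among non-overlapping genes whose mean reached 50, up to 4 called members of each list (or the 2 highest), genes within 1 Mb of *Fezf2*, genes in the study's text, and the 6 largest changes each way in which null and *Fezf2*+/+ overlap. Not every gene that this rule names is reported here. Count tests on the recovered reads used edgeR 4.0.16 and DESeq2 1.42.0. The other alternatives were pseudocounts, filters, rescaling by TMM or median ratio, a fit without *Fezf2*+/+, litter, litter m3 alone, *Xist* level, library weights and each library left out. The removal of length and GC trends together with a litter block was chosen after seeing the data. The limma fit was tested on simulated counts in which 100 genes each were changed 1.5-fold and 2-fold. It recovered 56% and 90% of them, and 6.41% of its calls were false. The simulated counts held no litter or sex difference, so a gene that did not pass is not shown to be unchanged. Promoter windows are from RefSeq. Tables were made with Python 3.11.15, pandas 2.3.3 and SciPy 1.17.1.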

Additional observations from a re-analysis of the deposited data

Results flagged for a closer look

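In 6 of the 87 named genes, 1 of the 4 null libraries lay far from the other 3 (by a gap test on the group's range, which chance passes in about 1 of 20 groups). *Tle4* was at 820 in bc206 against 977 to 990 in the others. *Zfpm2* was at 148 in bc204 against 180 to 186. The interneuron gene *Satb1* was at 4684 in bc204 against 6070 to 6119. The progenitor and upper-layer factor *Lhx2* was at 2420 in bc206 against 2679 to 2725. The calcium channel gene *Cacna1g* was at 1796 in bc207 against 1447 to 1452. *Synpr*, a synaptic vesicle protein gene that lies within 1 Mb of *Fezf2*, was at 1268 in bc204 against 760 to 847. *Tle4* and *Zfpm2* passed in the comparison with *Fezf2-EnR* whichever library was left out, and the other 4 did not pass.

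Outside the autosomal genes, *Xist* was at 7895 in the lower of the 2 *Fezf2-EnR* libraries and at 3 or less in every null library. Of the 607 genes tested on chromosomes X and Y, 7 passed, *Xist*, *Figf*, *Ddx3y*, *Kdm6a*, *Fhl1*, *Itm2a* and *Apln*. Sex and transgene cannot be told apart in these values.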

How the results depend on the processing

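The 117 called genes (66 lower, 51 higher) came to between 19 and 1049 when 1 library was left out, with 8 to 661 lower and 11 to 388 higher. The extremes were the fits without bc209 and without bc208, each of which leaves 1 *Fezf2-EnR* library and assumes that it varies like the other groups. With only the 2 groups compared, 56 genes passed (33 lower, 23 higher), within litter m3 24 (9 and 15), with *Xist* level as a covariate 10 (0 and 10), with library weights 44 (23 and 21) and with DESeq2 on recovered reads 430 (237 and 193). Litter as a block left 33 higher genes and 84 in all, of which 69 were among the 117. At an unadjusted p under 0.05, 2625 passed (1403 lower, 1222 higher). The fit with 2 groups and the one of litter m3 have fewer libraries, and for the other settings the cause was not tested. The remaining alternatives, other pseudocounts and filters, TMM and median-ratio rescaling, adjustment over autosomal genes, edgeR, a minimum log2 difference and the removal of length and GC trends, gave counts within 1.5 times. No named gene that was called changed direction under any alternative. For the fits that left out 1 library and for litter m3 alone, the lack of overlap between the groups fixed this outcome. Of the 46 called named genes, 4 passed with *Xist* level as a covariate, 16 within litter m3, 37 with litter as a block and 43 each with edgeR and DESeq2. No paired analysis was possible because the labels give no replicate number that 2 groups share, and litter, which they do give, is unbalanced. Removing length and GC trends together with a litter block, chosen after seeing the data, left 81 of the 117. With 2 *Fezf2-EnR* libraries, differences smaller than the spread shared by all groups were not detectable.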
